A study of Mus musculus with 18 samples.

Results

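The genes described here are 10 adipocyte genes: Ucp1, Cidea, Cidec, Plin1, Fabp4, Lpl, Acsl1, Pck1, Adipoq and Pparg. They were found by matching the Ensembl gene identifiers of the deposited expression tables to mouse gene symbols, and 10 of 10 were among the 55469 genes listed. They were picked with results of these data known, because several of them were lower in the mutant lines at 30 weeks, so their differences at 30 weeks are described without a test. The samples were total RNA from ventral and lateral prostate lobes of male C56NL/6N mice at 10 or 30 weeks, and all mice were heterozygous for TRAMP, a transgene in which the probasin promoter drives viral T antigens in the prostate epithelium. WT-TRAMP mice were ELAC2+/+. KO-TRAMP mice were ELAC2-/-, a homozygous deletion specific to the prostate, made by a Cre under the probasin promoter. Which cells of the prostate lost the gene was not tested. A537T-TRAMP mice were homozygous throughout the body for a threonine in place of alanine in ELAC2, an enzyme that trims the 3′ ends of tRNA precursors. Each of the 6 groups had 3 mice. The mice ate normal chow, and the seminal vesicles and the fat around the lobes were taken off at dissection.

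Fat cells come in white and brown forms. White adipocytes keep triglyceride in a single large droplet coated by perilipin and release hormones such as adiponectin, whereas brown adipocytes hold many small droplets and burn fatty acids for heat through UCP1, a proton channel of the mitochondrial inner membrane that classical white fat and prostate epithelium lack. Both forms depend on the nuclear receptor PPARγ, and thermogenic genes are switched on by noradrenaline from sympathetic nerves through cyclic AMP.

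Libraries are named by the number in their column header, and held 9380174 to 14830104 reads. Reads here are whole numbers recovered from the normalized values, and are estimates of the authors' quantification rather than direct counts. At 10 weeks WT-TRAMP has libraries 1 to 3, A537T-TRAMP has 4 to 6 and KO-TRAMP has 7 to 9, and at 30 weeks the same lines have 10 to 12, 13 to 15 and 16 to 18. Levels are in RPM, the reads of a gene in every 1000000 reads of its library. Elac2 stood at 22.0 to 27.2 RPM in WT-TRAMP and 21.5 to 24.7 in KO-TRAMP at 30 weeks, which overlap. A count over the whole gene includes exons outside the deleted part and checks no label here. Luminal prostate markers were present in every group, with 0 of 10 at 0 reads. The sum of 9 seminal vesicle genes varied from 1.39 to 43664 RPM within WT-TRAMP at 30 weeks alone.

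At 30 weeks, library 12 and library 18 lay between the other 2 libraries of their group at nearly every gene that separated those. Library 12 was between libraries 10 and 11 at 147 of 151 genes (97.4%) that differed at least 8-fold between them, with a median share of 43.3% from library 10 (interquartile range 38.2 to 49.0%). Library 18 was between libraries 16 and 17 at 630 of 637 such genes (98.9%), with 39.6% from library 16 (34.8 to 44.4%). Measured in units of counting error, the median misfit to the best weighted mean was 2.56 for library 12 and 2.46 for library 18, against 3.92 or more for every other library. Whether these libraries came from separate mice was not tested. The median and some of the member differences at 30 weeks, the Ucp1 shares and the counts of calls are also given without them.

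**Figure D1:**
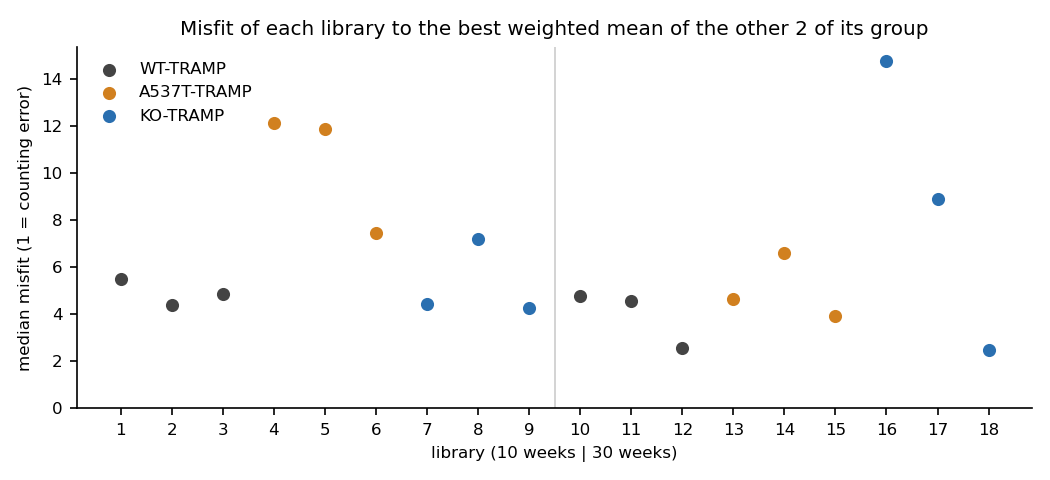
Median misfit of each of the 18 libraries (x axis, by header number) to the best weighted mean of the other 2 libraries of its group, in units of counting error (y axis). Libraries 12 (2.56) and 18 (2.46) are lowest, and library 16 (14.7) is highest.

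The upstream sequences of the genes that set the 30-week pattern are shown because those genes went together across libraries. They are the 250 bases before a transcription start in the RefSeq annotation of GRCm38.p6, printed 5′ to 3′ on the strand of the gene. Promoter windows were matched for 7 of the 10 genes, among them Acsl1 and Pparg but not Fabp4, Lpl or Cidea. Capitals mark matches on either strand to AGGTCA, which is the nuclear receptor site within the PPARγ motif, to TGACG, which is the core of a cyclic AMP response element, or to TTGCNNAA, a C/EBP core. Windows are Ucp1 chr8:83290098-83290347 (+), Pck1 chr2:173152823-173153072 (+), Cidec chr6:113434765-113435014 (−), Plin1 chr7:79732777-79733026 (−) and Adipoq chr16:23146286-23146535 (+).
Ucp1: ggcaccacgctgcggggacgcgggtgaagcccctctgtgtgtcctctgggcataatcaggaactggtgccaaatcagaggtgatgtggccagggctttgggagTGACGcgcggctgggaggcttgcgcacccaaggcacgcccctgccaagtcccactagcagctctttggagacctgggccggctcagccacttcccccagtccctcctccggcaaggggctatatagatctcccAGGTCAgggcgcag
Pck1: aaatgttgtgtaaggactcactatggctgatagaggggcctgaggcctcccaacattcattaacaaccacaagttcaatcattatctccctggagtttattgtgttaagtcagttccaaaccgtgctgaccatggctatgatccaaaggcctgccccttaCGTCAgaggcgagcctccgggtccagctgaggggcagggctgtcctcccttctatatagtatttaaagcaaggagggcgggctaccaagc
Cidec: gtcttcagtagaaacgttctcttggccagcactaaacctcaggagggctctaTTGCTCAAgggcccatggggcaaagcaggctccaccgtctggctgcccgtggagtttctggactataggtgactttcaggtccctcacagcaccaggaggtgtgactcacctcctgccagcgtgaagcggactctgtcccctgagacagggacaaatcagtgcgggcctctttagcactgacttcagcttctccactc
Plin1: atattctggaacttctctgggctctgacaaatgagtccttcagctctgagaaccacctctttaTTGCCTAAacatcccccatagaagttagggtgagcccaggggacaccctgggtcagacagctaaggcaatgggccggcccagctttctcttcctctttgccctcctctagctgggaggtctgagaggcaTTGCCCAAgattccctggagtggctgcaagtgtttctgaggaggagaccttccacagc
Adipoq: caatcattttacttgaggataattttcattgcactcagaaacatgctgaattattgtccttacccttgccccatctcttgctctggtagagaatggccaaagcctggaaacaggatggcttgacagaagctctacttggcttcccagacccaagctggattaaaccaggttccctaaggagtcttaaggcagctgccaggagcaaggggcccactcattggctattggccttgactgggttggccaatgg

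Ucp1 held AGGTCA from 14 to 9 bases and TGACG from 147 to 143 bases before its start. Pck1 held the opposite-strand form of TGACG from 90 to 86 bases before its start. Cidec held 1 match to TTGCNNAA, from 198 to 191 bases, and Plin1 held 2, from 187 to 180 and from 58 to 51 bases. A second Cidec window, chr6:113435761-113436010 (−), and the Adipoq window held no match to any of these motifs. Among 32851 promoter windows of the same length, 14% held AGGTCA, 17.8% TGACG and 9.56% TTGCNNAA, so single matches are common. The longer direct repeat AGGTCANAGGTCA was in 0.0335% of windows and in none of the windows used for the members, nor was TATAAA (12.4% of windows) in any of the 5 printed.

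Ucp1 (ENSMUSG00000031710.4, chromosome 8, 83290352 to 83298452, GRCm38) gave no read in any of the 9 libraries at 10 weeks. A count of 0 allows up to 3 reads, which is 0.229 to 0.320 RPM depending on the library. At 30 weeks it gave 49, 270 and 142 reads in WT-TRAMP, or 4.8, 22.1 and 13.9 RPM. A537T-TRAMP had 0, 2 and 0 reads and KO-TRAMP had 2, 2 and 1, so the WT-TRAMP libraries stood apart from both mutant lines. On log2(normalized count + 1), the scale of all differences below, Ucp1 was −5.74 ± 0.64 (SE, n = 3 and 3) in KO-TRAMP and −6.35 ± 0.76 in A537T-TRAMP relative to WT-TRAMP. From pooled reads, WT-TRAMP was 103 times KO-TRAMP (exact 95% interval 43.9 to 319) and 240 times A537T-TRAMP (66.2 to 1991). The WT-TRAMP reads recovered for the same libraries depend on the table. Ucp1 had 461 reads in that of KO-TRAMP and 452 in that of A537T-TRAMP, and Plin1 218 and 183. Each ratio uses its own table. The intervals, like all others on reads given here, treat these estimates as counts. They cover counting error only, and not this difference between tables.

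Cidea (chromosome 18, 67343604 to 67367785), a droplet protein typical of brown fat, gave 14, 52 and 42 reads in WT-TRAMP at 30 weeks. It gave 4, 0 and 0 in A537T-TRAMP and 0, 3 and 0 in KO-TRAMP. At 10 weeks only libraries 6 and 8 had reads, 1 and 2. The difference at 30 weeks was −4.56 ± 0.83 in KO-TRAMP and −4.32 ± 0.86 in A537T-TRAMP, with no overlap between WT-TRAMP and either line.

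Cidec and Plin1 encode proteins of the droplet surface: CIDEC fuses droplets, and perilipin 1 guards them from lipases. Cidec (chromosome 6, 113424634 to 113435760) stood at 5.30, 8.09 and 7.76 RPM in WT-TRAMP at 30 weeks. It stood at 1.5, 0.313 and 0.633 in A537T-TRAMP and at 0, 0.877 and 0.768 in KO-TRAMP, all below WT-TRAMP. Its difference was −4.14 ± 0.96 in KO-TRAMP and −3.17 ± 0.53 in A537T-TRAMP. Plin1 (chromosome 7, 79720218 to 79732903) stood at 2.84, 9.40 and 7.27 RPM in WT-TRAMP, 0.641, 0 and 0.362 in A537T-TRAMP and 0.178, 1.15 and 0.480 in KO-TRAMP. Its difference was −3.43 ± 0.72 in KO-TRAMP and −3.95 ± 0.88 in A537T-TRAMP, again without overlap. At 10 weeks neither gene had more than 6 reads in any library.

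Pck1 makes the cytosolic phosphoenolpyruvate carboxykinase with which fat cells form glycerol 3-phosphate for re-esterification, and Adipoq the hormone adiponectin, secreted almost only by adipocytes. Pck1 (chromosome 2, 173153048 to 173159273) stood at 7.35, 34.9 and 21.3 RPM in WT-TRAMP at 30 weeks, against 0.712, 0 and 0.452 in A537T-TRAMP and 0, 1.35 and 1.25 in KO-TRAMP. The difference was −5.07 ± 1.20 in KO-TRAMP and −5.57 ± 0.93 in A537T-TRAMP. Adipoq (chromosome 16, 23146536 to 23158028) stood at 2.84, 10.1 and 6.28 RPM in WT-TRAMP, 1.07, 0 and 0.181 in A537T-TRAMP and 0, 1.89 and 1.34 in KO-TRAMP. Its difference was −3.26 ± 1.25 in KO-TRAMP and −4.19 ± 0.97 in A537T-TRAMP. Neither gene overlapped between WT-TRAMP and a mutant line at 30 weeks, and at 10 weeks the highest library had 12 reads of Pck1 and 2 of Adipoq.

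Fabp4, Lpl and Acsl1 handle fatty acids. FABP4 carries them in the cytosol of adipocytes and is also made by macrophages and capillary endothelium. Lpl frees fatty acids from circulating triglyceride, and Acsl1 couples them to coenzyme A in many tissues. Fabp4 (chromosome 3, 10204088 to 10208576) stood at 19.7, 61.3 and 39.6 RPM in WT-TRAMP at 30 weeks and at 5.91, 1.88 and 4.07 in A537T-TRAMP. In KO-TRAMP it split, with 4.0 in library 16 but 39.9 and 26.5 in libraries 17 and 18, inside the WT-TRAMP range. Its difference was −3.28 ± 0.52 in A537T-TRAMP and −1.22 ± 0.89 in KO-TRAMP.

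Lpl (chromosome 8, 68880491 to 68907448) stood at 26.9, 44.0 and 34.4 RPM in WT-TRAMP at 30 weeks, above the 23.4, 16.6 and 17.2 of A537T-TRAMP and the 16.1, 17.2 and 15.5 of KO-TRAMP. The difference was −1.14 ± 0.21 in KO-TRAMP and −0.80 ± 0.23 in A537T-TRAMP. Acsl1 (chromosome 8, 46471037 to 46536051) stood at 149, 164 and 168 in WT-TRAMP, 156, 134 and 145 in A537T-TRAMP and 107, 95.5 and 101 in KO-TRAMP. It was lower only in KO-TRAMP, by −0.73 ± 0.11, and overlapped WT-TRAMP in A537T-TRAMP, where the difference was −0.05 ± 0.10. Whether the 2 lines differ at Acsl1 was not tested.

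Pparg (chromosome 6, 115360951 to 115490399), the receptor that directs fat cell formation, did not follow the other genes. It stood at 1.57, 4.33 and 1.96 RPM in WT-TRAMP, 1.99, 3.13 and 1.2 in A537T-TRAMP and 1.60, 17 and 10.7 in KO-TRAMP. Libraries 17 and 18 were the highest of all 18, and library 16 lay within the WT-TRAMP range. The difference was 1.39 ± 0.90 in KO-TRAMP and −0.15 ± 0.53 in A537T-TRAMP. Libraries 17 and 18 also held the most neuroendocrine marker RNA, a sum of 6 genes that reached 2.85 to 1155 RPM in KO-TRAMP (median 720) and at most 66.2 in any other group, with 0 of 6 at 0 in KO-TRAMP. The sum of 8 macrophage genes was 366, 321 and 357 RPM in libraries 16, 17 and 18. It was 146 to 246 in A537T-TRAMP and 115 to 141 in WT-TRAMP at 30 weeks, with 0 of 8 at 0 in each group. The sum of 5 basal epithelial genes was 217 and 153 RPM in libraries 17 and 18 and 32.6 to 39.7 in the other 30-week libraries, with 0 of 5 at 0 in KO-TRAMP. The part of these 3 marker sets in the Pparg and Fabp4 values was not tested. Library 18 lay near a weighted mean of libraries 16 and 17, with 10.7 RPM of Pparg against 10.9 for that mean. Whether libraries 17 and 18 are separate cases was not tested.

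**Figure D2:**
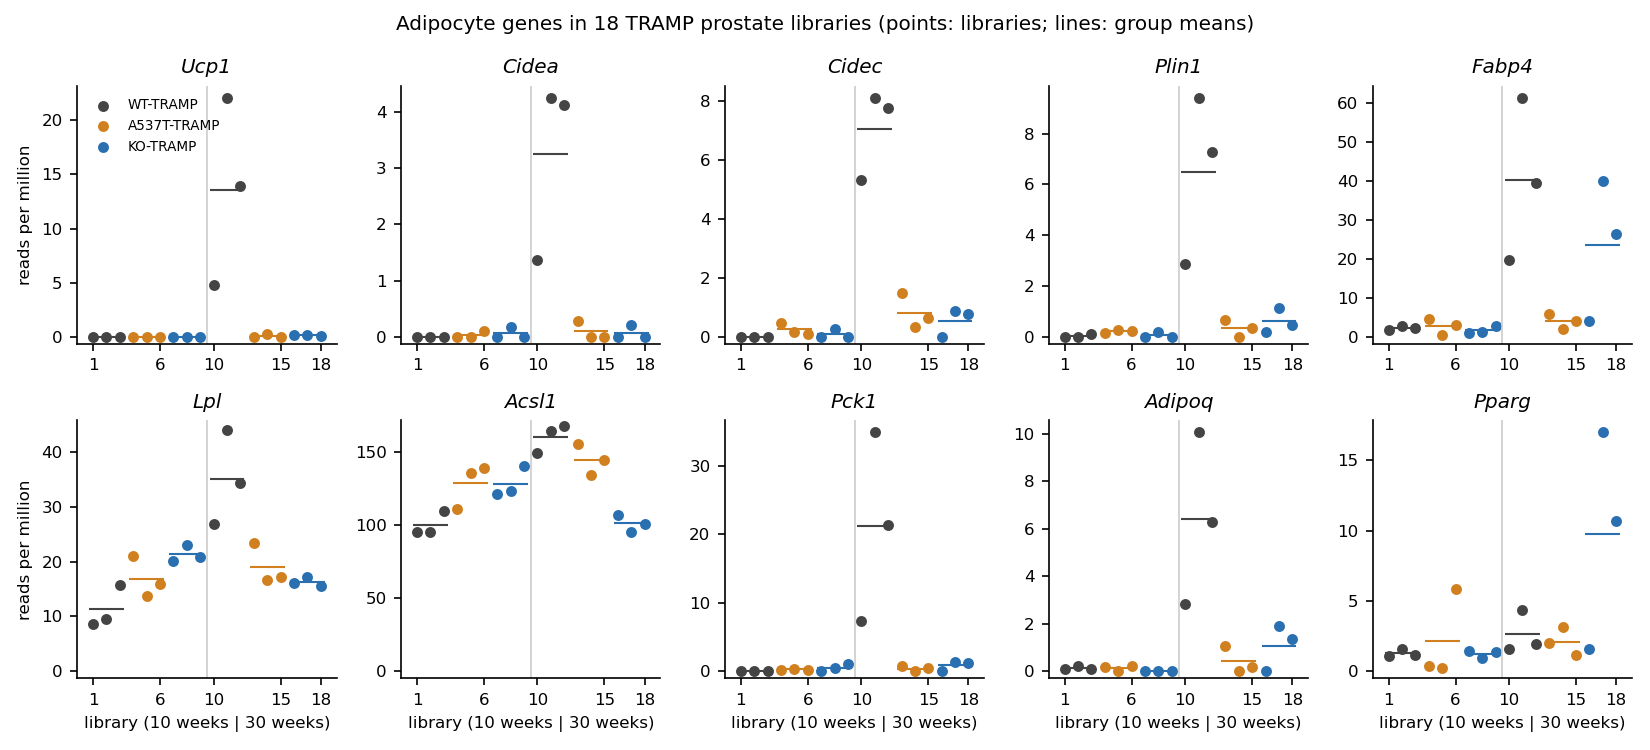
Reads of the gene in every 1000000 (RPM, y axes, linear, a scale per gene) of the 10 genes in each of the 18 libraries (x axes, 10 weeks left and 30 weeks right of the grey line). Points are libraries and lines are group means. WT-TRAMP at 30 weeks is highest at most genes, with Ucp1 at 4.8, 22.1 and 13.9, whereas Pparg is highest in libraries 17 and 18.

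In all, 8 of 10 members had every KO-TRAMP library below every WT-TRAMP library at 30 weeks, all but Fabp4 and Pparg, where 9.48% of all genes tested did so. For A537T-TRAMP it was also 8 of 10, all but Acsl1 and Pparg, against 6.03% of genes. No member had every mutant library above WT-TRAMP at 30 weeks, against 10.8% of genes for KO-TRAMP and 7.36% for A537T-TRAMP. The members were chosen on this contrast, so nothing is read from these counts. The median difference over the 10 members was −3.34 for KO-TRAMP against 0.01 over all genes, and −3.62 for A537T-TRAMP against 0.00. Both comparisons use the same 3 WT-TRAMP libraries. In bulk tissue, fewer fat cells in the piece taken and less of these RNAs in each cell cannot be told apart. Whether fat left around the lobes at dissection varied between libraries was not tested.

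Without libraries 12 and 18, a choice made after seeing the data, the median member difference in KO-TRAMP was −3.51, with Ucp1 at −5.46, Pck1 at −5.56 and Fabp4 at −1.50. Without library 12 the median in A537T-TRAMP was −3.51. Ucp1 was then −6.21, Pck1 −5.44, Adipoq −4.11, Cidea −4.08, Plin1 −3.79, Fabp4 −3.22, Cidec −3.09, Lpl −0.80, Pparg −0.28 and Acsl1 −0.01. Library 16 held no read of Adipoq, Pck1, Cidec or Cidea. Without it the median was −2.38, with Pck1 at −3.77, Cidec at −3.04, Adipoq at −1.86, Fabp4 at −0.25 and Pparg at 2.36.

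**Figure D3:**
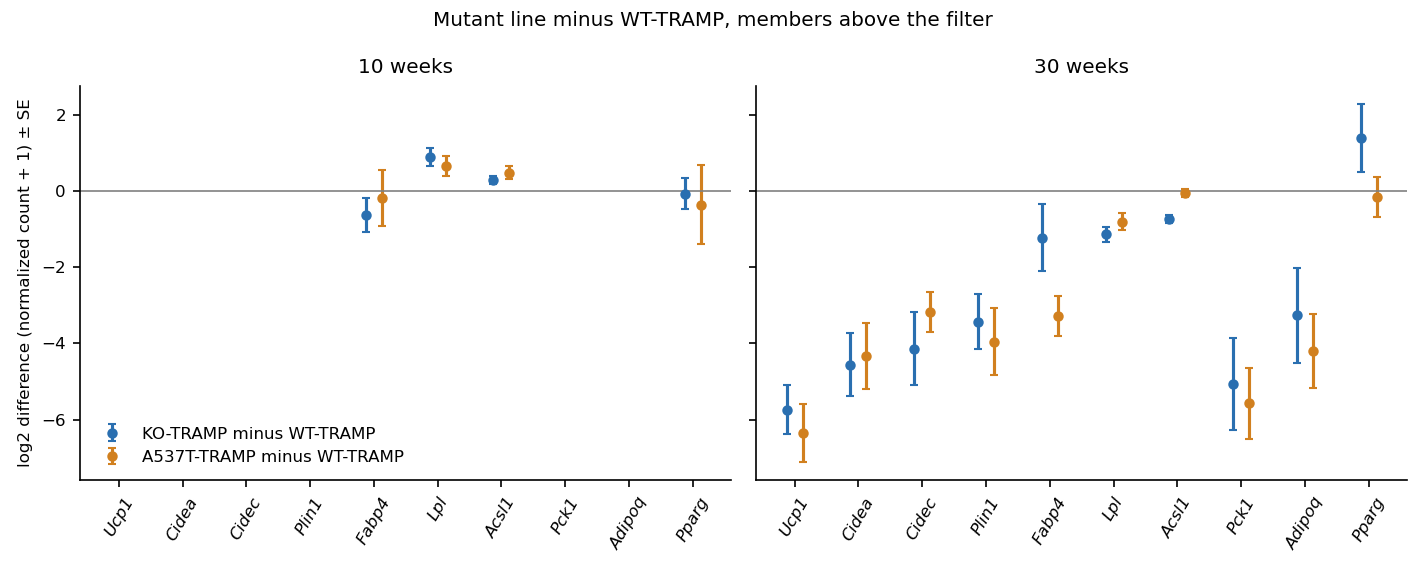
Difference of each mutant line from WT-TRAMP on log2(normalized count + 1) (y axis) with its SE, for the members that passed the filter on low values (x axis), at 10 weeks (left) and 30 weeks (right), 3 libraries per group. At 30 weeks Ucp1 is lowest (−5.74 and −6.35) and Pparg in KO-TRAMP is highest (1.39).

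Within WT-TRAMP at 30 weeks the genes spread over a wide range per length. Fabp4 stood at 44.9 ± 23.2 RPM per kilobase of transcript (SD, n = 3) and Acsl1 at 41.2 ± 2.57, followed by Lpl (8.52 ± 2.08), Ucp1 (8.32 ± 5.28) and Pck1 (7.96 ± 5.18). Adipoq (4.95 ± 2.79), Cidec (4.10 ± 0.888), Cidea (2.91 ± 1.46), Plin1 (2.31 ± 1.19) and Pparg (1.23 ± 0.703) were lower. The only neighbours in this order whose libraries did not overlap were Acsl1, with a lowest library of 38.3, and Lpl, with a highest of 10.7. Within each library Ucp1 per kilobase was above Adipoq, by 2.94 to 2.20, 13.5 to 7.78 and 8.52 to 4.86 in libraries 10, 11 and 12. It was also above Pck1 in 3 of 3, at 2.76, 13.1 and 8.01, and no test was made of these differences.

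The 3 WT-TRAMP libraries differed widely among themselves at Ucp1, and every other member but Acsl1 moved in the same order. Library 11 was highest and library 10 lowest at Ucp1, Cidea, Cidec, Plin1, Fabp4, Lpl, Pck1, Adipoq and Pparg. Ratios within a library were steadier. Ucp1 made up 39.5, 38.7 and 39.6% of the reads of Ucp1 and Pck1 in libraries 10, 11 and 12, and 62.8, 68.7 and 68.9% of those of Ucp1 and Adipoq. Against Cidec the share varied more, from 47.6% in library 10 to 73.2% in library 11. Library 12 lay between libraries 10 and 11 at nearly all genes that separated them. Whether its place and its shares follow from theirs was not tested.

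The same shares were also computed from the few reads left in the mutant lines, as a description, since both genes of each pair were used in the choice. Of the reads of Ucp1 and Adipoq pooled over 3 libraries, Ucp1 took 68.1% in WT-TRAMP (exact 95% interval 64.4 to 71.6%). It took 10.6% in KO-TRAMP (3.55 to 23.1%, 5 of 47 reads) and 10.5% in A537T-TRAMP (1.30 to 33.1%, 2 of 19). With Plin1 the shares were 67.9%, 17.2% and 13.3%, and with Cidec 66.5%, 19.2% and 6.06%, in the same order. With Pck1 they were 39.1% (36.3 to 41.9%), 13.2% (4.41 to 28.1%) and 11.8% (1.46 to 36.4%). Libraries 17 and 18, which kept 28 and 14 reads of Adipoq, each gave 6.67% for Ucp1 of Ucp1 and Adipoq. Libraries 14 and 16 went the other way, with 2 Ucp1 reads each and none of Adipoq or Pck1, which is 100% for both pairs. With Cidec the share was 40% in library 14 and 100% in library 16. Without libraries 12 and 18 the pooled shares with Adipoq were 67.7% in WT-TRAMP, 12.5% in KO-TRAMP and 10.5% in A537T-TRAMP. In the same order they were 68.9%, 17.4% and 13.3% with Plin1, 67.6%, 23.5% and 6.06% with Cidec, and 38.9%, 16.7% and 11.8% with Pck1.

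**Figure D4:**
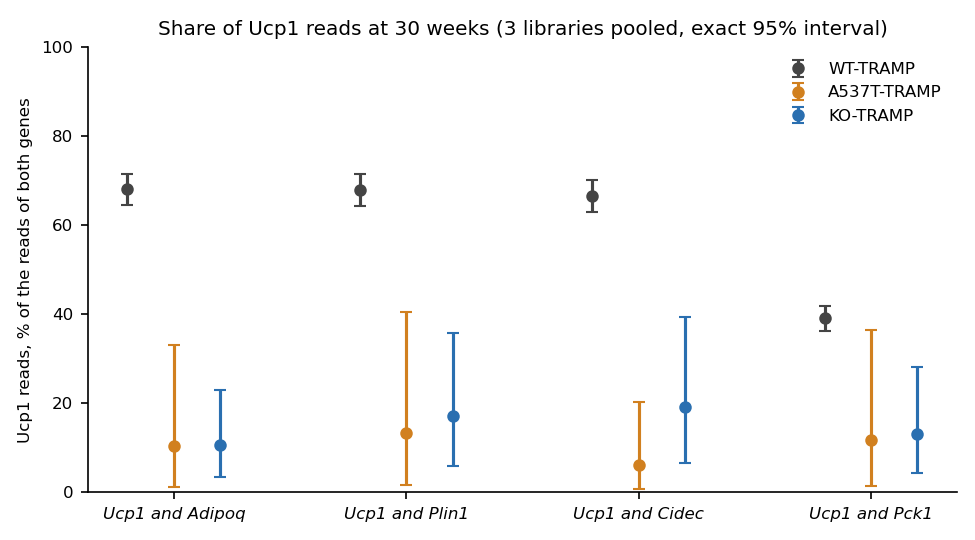
Ucp1 reads as a percentage of the reads of Ucp1 and a second adipocyte gene (x axis) at 30 weeks, 3 libraries pooled per group, with exact 95% intervals for counting error. WT-TRAMP lies at 68.1% with Adipoq and 39.1% with Pck1, and both mutant lines lie at 6.06 to 19.2% with all 4 genes.

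Across all libraries, 7 of the 10 genes had their 3 WT-TRAMP 30-week libraries above the other 15. These were Ucp1, Cidea, Cidec, Plin1, Lpl, Pck1 and Adipoq. Among 17897 genes with a mean of at least 0.5 RPM in that group, 107 (0.598%) did so. The members were chosen on their fall from that group at 30 weeks, and the 0.5 RPM filter uses the same group. Nothing is read from this count. Levels here come from RPM of each library and were not tested between ages, whose tables were normalized separately. By correlation of log2(RPM + 1) over 18 libraries among 13567 genes with a mean of at least 1 RPM, those most like Ucp1 were Pck1 (r = 0.966), Plin1 (0.963), Cidec (0.927), Adipoq (0.908) and the immunoglobulin gene Ighg2c (0.848). Cidea, whose mean was under 1 RPM, had r = 0.984 with Ucp1. Those most like Adipoq were Plin1 (0.971), Pck1 (0.954), Cidec (0.949), Cfd (0.936) and Fabp4 (0.913). The libraries are not independent of age and line, and these values describe that shared pattern.

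The 10-week libraries were not used in choosing the genes and were tested. Only Fabp4, Lpl, Acsl1 and Pparg reached a mean normalized count of 10, and 0 of these 4 passed the threshold (limma, adjusted p under 0.05 over all genes) in either line. Of all genes tested, 0.0129% passed for KO-TRAMP and 0.00648% for A537T-TRAMP. DESeq2 and edgeR called 0 of the 4 as well. Over all genes DESeq2 called 0.526% for KO-TRAMP and 0.964% for A537T-TRAMP, and edgeR 0% for both. Lpl and Acsl1, 2 of 4, had an unadjusted limma p under 0.05 in each line, as did 6.64% of all genes for KO-TRAMP and 7.89% for A537T-TRAMP.

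Lpl at 10 weeks had normalized counts of 98.8, 111 and 185 in WT-TRAMP and 221, 262 and 230 in KO-TRAMP, without overlap. Its difference was 0.90 ± 0.24 (limma adjusted p = 0.710). In A537T-TRAMP the values were 216, 176 and 172 against 92.4, 105 and 173 in WT-TRAMP of that table, which overlap (0.65 ± 0.26, limma adjusted p = 0.600). Acsl1 had 1091, 1119 and 1285 in WT-TRAMP and 1333, 1400 and 1550 in KO-TRAMP (0.29 ± 0.11, limma adjusted p = 0.717). Against A537T-TRAMP it had 971, 997 and 1138 in WT-TRAMP and 1142, 1735 and 1509 in the mutant (0.48 ± 0.18, limma adjusted p = 0.600).

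Fabp4 and Pparg overlapped between groups at 10 weeks. Fabp4 was −0.63 ± 0.45 and −0.18 ± 0.75 in the KO and A537T lines, and Pparg −0.08 ± 0.41 and −0.36 ± 1.04 (limma adjusted p from 0.832 to 0.982). Library 6 held 55 reads of Pparg against 5 and 3 in libraries 4 and 5, and the sign of the A537T-TRAMP difference at both genes turned with the method. Every KO-TRAMP library lay above every WT-TRAMP library at 2 of 4 members and below at 0, against 5.77% and 6.26% of all genes. For A537T-TRAMP the counts were 1 above, Acsl1, and 0 below, against 6.92% and 6.53%.

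A further 81 adipocyte genes in 7 lists were followed, and 0 passed the threshold in any of the 4 comparisons (limma). At 30 weeks 67 could be tested in KO-TRAMP, where 0.213% of all genes passed. Of these 67, 15 had an unadjusted p under 0.05, as did 13.5% of all genes. DESeq2 called 7 of them, with Kcnk3, Slc36a2 and Acacb lower and Otop1, Pdgfra, Pdgfrb and Cd34 higher. Over all genes DESeq2 called 4.77% and edgeR 0.0888%. In A537T-TRAMP 64 could be tested and 16 had an unadjusted p under 0.05, against 7.21% of all genes. By limma 0% of all genes passed there, with 1173 at an unadjusted p under 0.05, and edgeR called 0. DESeq2 called 165 genes (1.02%) and 2 of these 64, Ppargc1a and Cd36, both lower. By edgeR 0 of the other adipocyte genes were called in each comparison. Differences were negative for 38 of 67 genes in KO-TRAMP (median −0.13) and 43 of 64 in A537T-TRAMP (median −0.16). All mutant libraries lay below WT-TRAMP at 13 genes in each line, against 9.48% and 6.03% of all genes for KO-TRAMP and A537T-TRAMP. They lay above at 8 genes for the KO and 4 for the A537T line, against 10.8% and 7.36%. The lists were chosen with results of these data known, so nothing is read from these counts. Some genes passed the filter on low values only through WT-TRAMP, such as Slc36a2, with means of 25.4 there and 2.01 in KO-TRAMP. Limma called 0 of the other adipocyte genes without library 12 in either line, without library 18, and without both in KO-TRAMP.

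Of the 22 further thermogenic genes, 19 reached a mean of 0.5 RPM in WT-TRAMP at 30 weeks, and the list summed to 167 to 180.5 RPM there. Ppargc1a, a coactivator of mitochondrial genes that many tissues make, stood at 24.7, 27.4 and 24.0 RPM in libraries 10, 11 and 12. Genes of the list with all 3 WT-TRAMP 30-week libraries above the other 15 were Cox8b, a muscle-type and brown-fat cytochrome oxidase subunit, with 5, 16 and 11 reads, and the amino acid transporter Slc36a2, with 5, 45 and 24. Elovl3, a fatty acid elongase induced by cold, gave 1, 3 and 1 reads there and none elsewhere. Zic1, a transcription factor of classical brown fat, gave 0 reads in all 18 libraries, and Lhx8 gave 0 in WT-TRAMP at 30 weeks. The median thermogenic difference at 30 weeks was −0.13 in KO-TRAMP and −0.33 in A537T-TRAMP. Slc36a2 was −2.80 in KO-TRAMP (limma adjusted p = 0.332) and −2.48 in A537T-TRAMP (0.673), and Cpt1b, which admits fatty acids to mitochondria in muscle and brown fat, −3.20 in A537T-TRAMP (0.616). The proton channel gene Otop1 was 3.59 higher in KO-TRAMP (limma adjusted p = 0.434), from 5, 1853 and 794 reads in libraries 16, 17 and 18. The neuroendocrine and basal epithelial sums had the same order. Library 18 lay between libraries 16 and 17 at nearly all genes that separated them, and the source of the Otop1 reads was not tested.

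Of white fat genes outside the members, the secreted factors Retn (resistin) and Cfd had all 3 WT-TRAMP 30-week libraries above the other 15, Retn with 5, 20 and 10 reads. Over the 7 lists, 75 genes had a mean of at least 0.5 RPM in that group. Of these, 5 (6.67%) stood highest in this way, Gpd1, Cox8b and Slc36a2 among them, against 0.598% of all genes. The lists were chosen with results of these data known, so nothing is read from this count. Among adipokines (medians −0.44 and −0.50, KO-TRAMP first) Cfd, the complement protease adipsin, gave 77, 135 and 93 reads in WT-TRAMP, 0, 58 and 33 in KO-TRAMP and 61, 4 and 15 in A537T-TRAMP. Its difference was −3.21 in KO-TRAMP (limma adjusted p = 0.384) and −2.62 in A537T-TRAMP (0.568), and that of Nrg4 −1.33 and −0.50. Leptin (Lep) gave 2, 20 and 10 reads in WT-TRAMP and 0, 12 and 4 in KO-TRAMP, which overlap. Car3, a carbonic anhydrase abundant in fat and muscle, gave 232, 514 and 332 reads in WT-TRAMP, 4, 425 and 157 in KO-TRAMP and 79, 2 and 24 in A537T-TRAMP. The differences were −2.51 (limma adjusted p = 0.448) and −4.26 (0.436), in a list of adipocyte-enriched genes with medians of −0.64 and −1.02, and Trarg1 of that list stood at −1.66 and −1.55.

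The other 4 lists hold genes that many cell types share. Lipid storage and lipolysis had a median of −0.26 for KO-TRAMP and −0.27 for A537T-TRAMP, with the droplet protein Plin4 at −1.39 and −0.75, Gpd1 at −0.84 in KO-TRAMP and Dgat2 at −0.92 in A537T-TRAMP. Fatty acid uptake and synthesis had medians of −0.20 and −0.12. In it Acacb was −1.88 and Fabp5 1.52 in KO-TRAMP, and the lipogenic gene Thrsp was −2.98 and the fatty acid transporter Cd36 −1.67 in A537T-TRAMP. Regulators had medians of 0.10 and 0.09, with Klf15 at −0.92 and Ebf1 at 0.61 in KO-TRAMP and Cebpd at 1.01 and Ebf1 at 0.40 in A537T-TRAMP. Fat cell precursor genes had positive medians of 0.95 and 0.46. Cd34, also an endothelial gene, was 1.64 in KO-TRAMP and 0.87 in A537T-TRAMP, Pi16 1.42 in KO-TRAMP and Pdgfra 0.82 in A537T-TRAMP. Limma adjusted p in these 4 lists ran from 0.170 for Cd34 in KO-TRAMP to 0.847 for Ebf1 in A537T-TRAMP among the genes named. Summed endothelial markers were 58.0 to 103 RPM in KO-TRAMP and 37.1 to 41.0 in WT-TRAMP at 30 weeks, with 0 of 8 at 0, and their part in the Cd34 values was not tested.

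**Figure D5:**
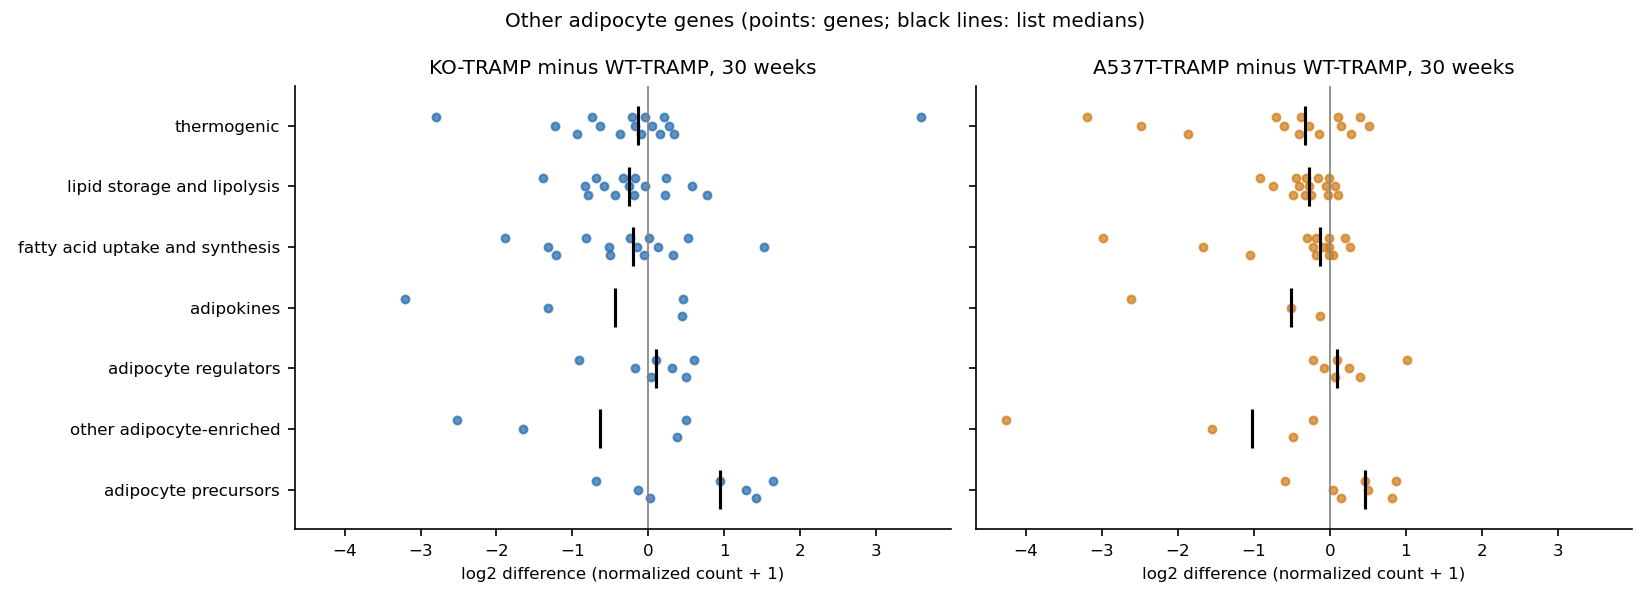
Differences from WT-TRAMP on log2(normalized count + 1) (x axes) at 30 weeks for the other adipocyte genes above the filter on low values, by list (y axis), for KO-TRAMP (left) and A537T-TRAMP (right). Points are genes and black lines list medians, which run from −0.64 to 0.95 in KO-TRAMP and from −1.02 to 0.46 in A537T-TRAMP.

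At 10 weeks 55 of the 81 genes could be tested in each line. In KO-TRAMP 27 were positive and 28 negative (median −0.00), led by the adipokine Nrg4 at 2.83 (limma adjusted p = 0.716), Acacb at 1.22 and Cpt1b at −1.0. Prdm16, Plin4, Mgll, Cd34 and Srebf1 lay between 0.64 and 0.83. Zfp423 was 0.60, Cebpa 0.59, Elovl6 0.43, Angptl4 0.29, Lgals12 −0.52 and Car3 −0.83. In all 8 genes had an unadjusted p under 0.05, against the 6.64% of all genes. In A537T-TRAMP 34 were positive and 21 negative (median 0.24), led by Acacb at 2.74, Elovl6 at 2.60, Prdm16 at 2.30 and G0s2 at 2.00 (limma adjusted p = 0.600 for each). Plin4 was 1.77, Cebpa 1.23, Cd34 1.2, Pdgfrb 1.13, Angptl4 1.10, Cebpb 0.50, Acvr1c 0.33, and Ppargc1a and Lgals12 were both −0.64. In all 10 genes had an unadjusted p under 0.05, against the 7.89% of all genes. The sum of seminal vesicle genes was 488 to 90658 RPM in A537T-TRAMP and 1.83 to 4.59 in WT-TRAMP at 10 weeks, where 2 of 9 were at 0. The sum of basal epithelial genes was 179 RPM in library 6 and 37.3 to 112 in the other 10-week libraries. The part of either in these values was not tested.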

How the data were processed

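RNA-seq was done on 18 libraries, 3 per group. The authors trimmed reads with Trim Galore 0.4.1 and cutadapt 1.18, aligned them to GRCm38.p6 with STAR 2.7.3a and quantified genes with Salmon. The deposited values are signal, normalized counts divided by a size factor per library, in 4 tables of 6 libraries. Tables of the authors' own comparisons, with shrunken log2 fold changes, their SD and s-values, were not used. Dividing by the value of 1 read gave whole numbers for 100% of values (tolerance 0.02 reads). RPM (reads in every 1000000) were computed from them. They are called reads, but are estimates, since Salmon quantified the genes and the numbers of a library differ between tables. The 3 columns in both tables of an age were taken as WT-TRAMP, whose reads are those of the KO-TRAMP tables unless said otherwise, since reads recovered for a library from both tables were identical at 30.9 to 37.6% of genes. Values per kilobase use the longest coding transcript of GENCODE vM21, whose coordinates are given, while the authors used vM24.

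Each line was compared with WT-TRAMP within its table with limma 3.58.1 (R 4.3.3, eBayes with trend) on log2(normalized count + 1), for genes with a mean of at least 10, two-sided, adjusted by Benjamini-Hochberg, threshold 0.05. The fold on this scale understates changes of low genes. The authors matched the males by age and litter, but no header ties a library to a mouse or litter, so p-values measure the spread between these libraries. The code was tested on simulated data. Other pseudocounts, no filter, TMM scaling, array weights, leaving out each library, and edgeR 4.0.16 and DESeq2 1.42.0 on recovered reads were tried. The members and lists were chosen with earlier results of these data known. All members are named, and of each other list the genes past the threshold or, where none passed, the 2 with the largest difference. The 5 genes most like Ucp1 and Adipoq by correlation are named, among those with a mean of at least 1 RPM and without a predicted-gene name. Genes named outside these rules, such as Zic1, Lhx8, Elovl3, Cox8b and Lep, were chosen after their values were seen.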

Additional observations from a re-analysis of the deposited data

Results flagged for a closer look

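At Lpl and Acsl1, every KO-TRAMP library lay above every WT-TRAMP library at 10 weeks and below at 30 weeks. Lpl was 0.90 at 10 weeks and −1.14 at 30 weeks on log2(normalized count + 1), and Acsl1 was 0.29 and −0.73. Zfp423, a transcription factor of fat cell precursors, did so in A537T-TRAMP, with 1.07 at 10 weeks and −0.59 at 30 weeks. The difference between the ages was not tested, and the 30-week values of Lpl and Acsl1 come from the contrast the genes were chosen on.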

How the results depend on the processing

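Among the 4 members tested at 10 weeks, 0 were called under each alternative tried. The count of other adipocyte genes called, 0 in each comparison, became 1 at 10 weeks in KO-TRAMP with DESeq2 (Srebf1), 2 in A537T-TRAMP (Plin4 and Elovl6), and at 30 weeks 7 in KO-TRAMP and 2 in the A537T line. Array weights called 45 and 21 at 30 weeks, in fits that did not fully converge. Leaving out each library gave 0 to 2 in A537T-TRAMP at 10 weeks (2 without library 4) and 0 to 17 in KO-TRAMP at 30 weeks (17 without library 16). Over all genes that comparison called 36, with 3064 without library 16, 805 with DESeq2, 10748 with array weights and 0 without libraries 12 and 18. The cause was not tested. The median member difference at 30 weeks was −2.74 in A537T-TRAMP and −2.57 in KO-TRAMP with a pseudocount of 5, which shrinks low values. Leaving out each library gave −4.14 (without library 13) to −2.95 (without 14) in A537T-TRAMP and −4.02 (without 17) to −2.38 (without 16) in KO-TRAMP. The count of members highest in WT-TRAMP at 30 weeks stayed at 7, and was 8, with Fabp4, without libraries 17 and 18.

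Signs turned among differences that passed no threshold at 10 weeks, and for Pparg in A537T-TRAMP at 30 weeks, which was not tested. That value was −0.15, and ran from −0.48 (without library 14) to 0.29 (without library 11) when each library was left out, with 0.21 without library 15. In A537T-TRAMP, Fabp4 was 0.23 with DESeq2, 0.25 with edgeR and 0.12 with array weights, and −0.75 to 0.69 when each library was left out. Pparg there was 0.80, 0.79 and 1.11, and −0.47 to 0.33, with no value without library 6, when it fell under the filter. In KO-TRAMP, leaving out each library gave −0.19 to 0.10 for Pparg, −1.94 to 0.41 for Cpt1b, −0.35 to 1.22 for Elovl6, −0.23 to 0.67 for Angptl4 (−0.15 with array weights) and −2.09 to 0.63 for Car3 (0.040 with DESeq2, 0.070 with edgeR). No paired analysis was possible because the column headers carry no replicate number. With 9380174 reads or more per library, a member with 0 reads can still be present at a level of up to 3 reads.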
